A study of Mus musculus with 40 samples.

Results

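Glutamate and GABA receptor subunits were followed in the brains of male mouse offspring whose dams and who themselves had eaten a high-fat (HF) or a low-fat (LF) diet. The members were all probes of the array whose gene symbol belonged to the AMPA (Gria), kainate (Grik), NMDA (Grin), metabotropic glutamate (Grm), GABA-A (Gabra to Gabrr) or GABA-B (Gabbr) receptor families, which gave 47 probes for 35 genes of the 25697 probes on the array. Of these, 24 probes for 17 genes exceeded background in 20 or more of the 40 arrays, and all tests concern those 24 probes. Whole-brain RNA of 40 nine-week-old C57BL/6J males, 10 in each group, was hybridised to Illumina MouseRef-8 v2.0 beadchips. The groups are named by the diet of the dam and then that of the offspring. HF_HF animals were born to HF dams and fed HF after weaning at 3 weeks, HF_LF animals were born to HF dams and fed LF, LF_HF animals were born to LF dams and fed HF, and LF_LF animals were born to LF dams and fed LF. Dams ate their diet from before mating until weaning, so exposure before conception, in the womb and through milk cannot be told apart. Litters of 12 breeding cages were used, 6 on either maternal diet, and both post-weaning diets were represented among the offspring of 5 cages.

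Glutamate is the main excitatory transmitter of the brain and GABA the main inhibitory one. AMPA, kainate and NMDA receptors are cation channels built of several subunits that open when glutamate binds, AMPA receptors carrying most of the fast current and NMDA receptors admitting calcium when the membrane is already depolarised. Metabotropic glutamate receptors and GABA-B receptors act through G proteins, whereas GABA-A receptors are chloride channels made of several subunits, usually of the alpha, beta and gamma or delta types. The levels of many of these subunits differ strongly between brain regions, and in whole-brain RNA fewer cells of a type and less RNA per cell cannot be told apart.

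The promoters of Gria2 and Gabrb2 are shown because these genes had the smallest p-values of the receptors in the comparison of maternal diet averaged over post-weaning diets, although no promoter measurement was made in these samples. Entries were found for 28 of the 35 receptor genes among the 32851 mouse promoters of RefSeq (GRCm38.p6), each running from 250 bases before to 50 bases after a transcript start. Capitals mark CG dinucleotides. The Gria2 promoter lies at chr3:80802786-80803085 on the minus strand, and the first of 3 listed for Gabrb2 lies at chr11:42420190-42420489 on the plus strand.
Gria2: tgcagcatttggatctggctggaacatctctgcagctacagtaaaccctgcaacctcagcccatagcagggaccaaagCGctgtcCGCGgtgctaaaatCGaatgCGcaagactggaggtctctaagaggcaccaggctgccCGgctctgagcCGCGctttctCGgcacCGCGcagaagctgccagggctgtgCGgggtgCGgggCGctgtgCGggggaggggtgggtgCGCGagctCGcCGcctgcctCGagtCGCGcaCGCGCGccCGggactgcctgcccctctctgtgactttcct
Gabrb2: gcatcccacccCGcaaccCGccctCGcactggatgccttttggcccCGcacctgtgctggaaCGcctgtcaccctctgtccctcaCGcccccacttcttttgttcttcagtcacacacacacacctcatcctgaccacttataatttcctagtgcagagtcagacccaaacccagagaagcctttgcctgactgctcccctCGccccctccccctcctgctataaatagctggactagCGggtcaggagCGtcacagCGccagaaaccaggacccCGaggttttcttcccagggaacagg
The Gria2 window held 26 CG dinucleotides, and 83.1% of all promoters held fewer. The Gabrb2 window shown held 11, and 58.6% of all promoters held fewer, with a median of 7.0 over all promoters. On either strand, the letters TATAAA (the TATA box) occurred 1 time in the Gabrb2 window and not in the Gria2 window, against 13.6% of all promoters that held them. GGGCGG (the Sp1 site) likewise occurred in this first Gabrb2 window and not in the Gria2 window, against 35.7% of all promoters. The other listed Gabrb2 windows, from chr11:42420524 and chr11:42420951, held 9 CG dinucleotides each and 0 matches to either motif. These matches describe the letters only.

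Detection differed by receptor class. All 9 AMPA probes were above background, 8 of them in all 40 arrays, and they covered all 4 genes of the class. Of the kainate genes, Grik1, Grik4 and Grik5 were above background, while Grik2 was so in only 5 arrays. Of the 5 NMDA genes with a probe, Grin2c, a subunit typical of cerebellar granule cells, was above background in 40 arrays, Grin2b in 17, Grin3b in 5, Grin2a in 4 and Grin2d in 0. Grin2a and Grin2b encode the glutamate-binding subunits of most forebrain NMDA receptors. A probe below background gives only a bound on signal and says nothing about the presence of the receptor.

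Of the 5 metabotropic genes with a probe, Grm4, Grm7 and Grm8, which belong to the group that lowers transmitter release, were above background. Grm3 was so in 1 array and Grm6, known from retinal bipolar cells, in 0. Among the GABA-A genes Gabra3, Gabrb1, Gabrb2, Gabrd and Gabrg1 were above background, whereas the 8 others, Gabra2, Gabra4, Gabra5, Gabra6, Gabre, Gabrg3, Gabrp and Gabrq, were so in 0 to 3 arrays. Gabra6 partners Gabrd in cerebellar granule cells. Its probe lay between 5.77 and 6.30 on the log2 scale in the 40 arrays and was above background in 0, although 5 of 7 cerebellar granule markers were measured. The 4 probes of the 3 rho genes, best known from the retina, were above background in 0 arrays. Gabbr1, the ligand-binding GABA-B subunit, had one probe above background in 40 arrays and another in 0, and Grik1 had one probe in 40 and the others in 0 and 5. Of 16 subunits listed as principal ones, 10 had a probe, and the others were not analysed here.

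**Figure D1:**
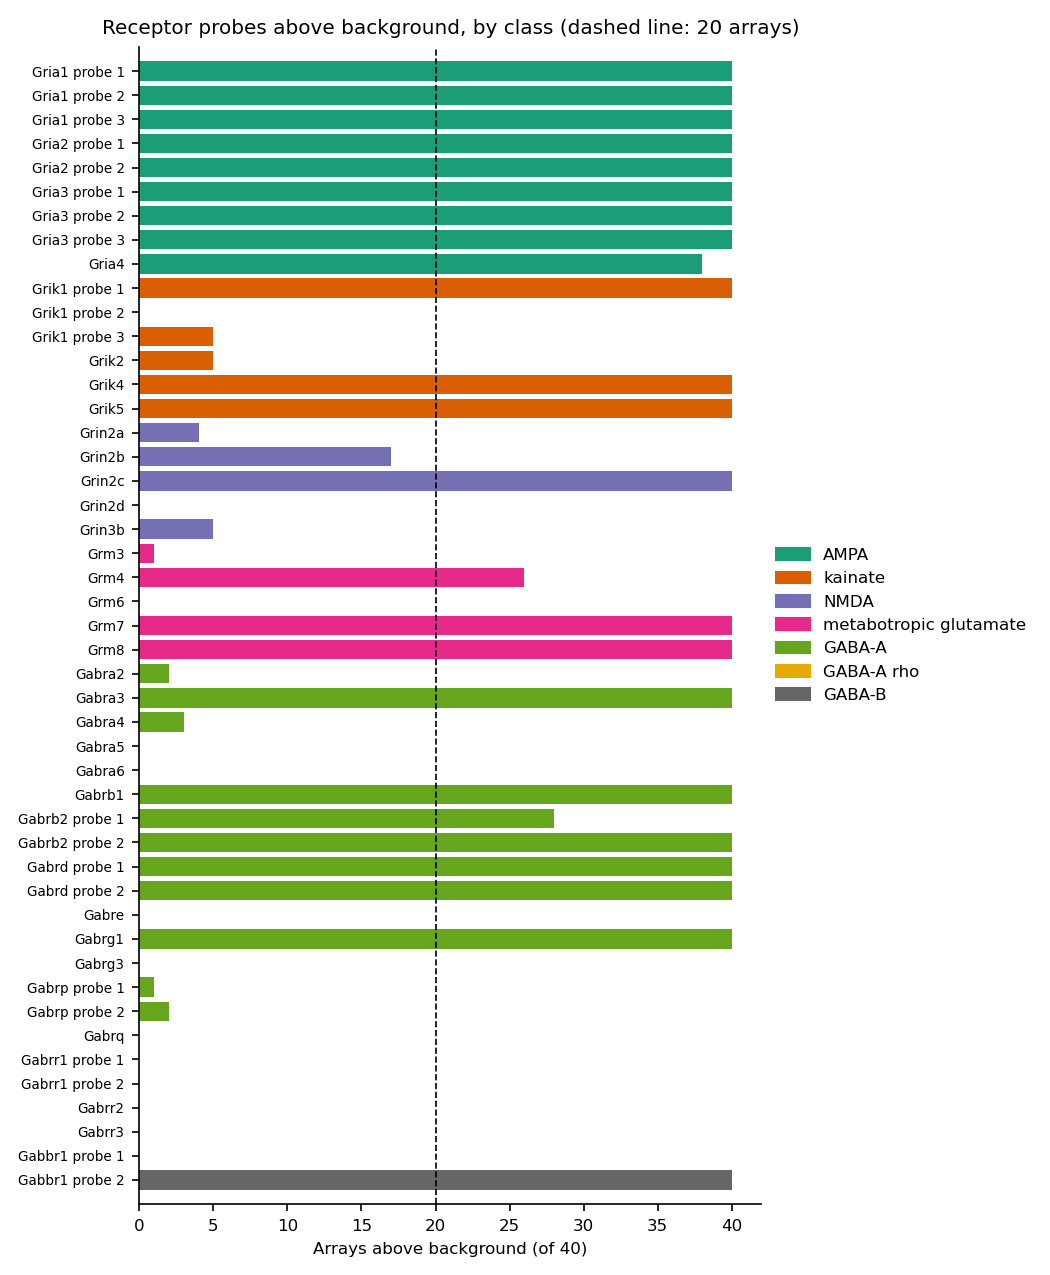
Number of the 40 arrays (horizontal axis) in which each of the 47 receptor probes (vertical axis) was above the array's background, coloured by receptor class, with a dashed line at the 20 arrays needed for testing. All 9 AMPA probes pass the line, and 1 of 5 NMDA probes and 0 of 4 rho probes do.

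The arrays also differed within each diet group. Of the variance of the 14350 probes above background, 54.8% lay along the first principal component, and the arrays fell into a larger set of 25 and a smaller set of 15 on either side of a gap in it. The smaller set held 4 HF_HF, 4 HF_LF, 2 LF_HF and 5 LF_LF arrays, so every group had arrays in both. Correlations between single pairs of arrays ran between 0.922 and 0.996, and 5 arrays stood apart by their mean correlation with the others. General neuronal markers, 6 of 8 measured, averaged between 11.43 and 11.82 in every animal on the log2 scale. Several other marker lists varied far more, those of the hypothalamus (4 of 7 measured) between 6.37 and 10.42 and those of the thalamus (5 of 7) between 7.70 and 10.03. Choroid plexus markers (6 of 7) lay between 6.63 and 9.70, cerebellar granule cell markers (5 of 7) between 7.10 and 8.74 and oligodendrocyte markers (7 of 8) between 10.85 and 12.29. Astrocyte markers (7 of 7) varied less, between 9.39 and 9.89.

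Gria2, the AMPA subunit whose edited form makes the channel poorly permeable to calcium, had a positive difference in each of the 4 pairwise comparisons, as had Gabra3 and Grm8. Its first probe measured a lowest, median and highest log2 intensity of 12.11, 12.28 and 12.74 in HF_HF, of 12.02, 12.19 and 12.44 in HF_LF, of 12.04, 12.24 and 12.57 in LF_HF and of 11.61, 12.08 and 12.30 in LF_LF. LF_LF had the lowest median and the lowest single animal, and the ranges of the groups overlapped. In HF_LF against LF_LF the difference was 0.15 ± 0.07 (SE), or 1.11-fold, with 9 of 10 HF_LF animals above the LF_LF mean (limma, p = 0.0572, adjusted p = 1). In LF_HF against LF_LF it was 0.16 ± 0.08, or 1.12-fold, again with 9 of 10 animals above the LF_LF mean (limma, p = 0.0471, adjusted p = 0.717). Both comparisons share the LF_LF animals. With the cage as a fixed block, the difference in LF_HF against LF_LF was 0.08 and no receptor probe was at unadjusted p under 0.05. No receptor probe was so with cyclic loess normalisation or array weights either, and 1 was with the cage as a random block.

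The other pairwise and averaged contrasts of the first Gria2 probe were also positive, and the interaction was -0.06 ± 0.10 (limma, p = 0.556). HF_HF against LF_HF gave 0.08 ± 0.07 (limma, p = 0.268) and HF_HF against HF_LF gave 0.10 ± 0.07 (limma, p = 0.178). Averaged over the other diet, maternal HF against LF gave 0.11 ± 0.05 (limma, p = 0.034, adjusted p = 0.995) and post-weaning HF against LF gave 0.13 ± 0.05 (limma, p = 0.0181, adjusted p = 0.837), the post-weaning value being 0.08 with the cage as a fixed block. The second Gria2 probe differed in the same direction in all 7 comparisons, with 0.14 ± 0.12 in HF_LF against LF_LF and 0.18 ± 0.11 in LF_HF against LF_LF. None of these passed the adjustment over all probes. Across animals, after removing group means, the 2 probes had r = 0.69 and rho = 0.58 (permutation p = 1e-05, the smallest these permutations can give, and p = 0.00024, adjusted p = 1.5e-05 and 0.00036 over 9 probe pairs), and r = 0.56 without the 2 farthest animals. Within the larger and the smaller set of arrays r was 0.62 and 0.72.

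Gria1, an AMPA subunit abundant in the hippocampus, had 3 probes above background. Probe 3 measured 9.34, 9.60 and 9.78 (lowest, median, highest) in HF_LF, against 9.44, 9.77 and 10.05 in LF_LF. The HF_LF median was the lower one, with 9 of 10 HF_LF animals below the LF_LF mean and overlapping ranges. The difference was -0.16 ± 0.08, or 0.893-fold (limma, p = 0.045, adjusted p = 1). The other probes gave -0.13 ± 0.10 and -0.12 ± 0.08 in the same comparison. In HF_HF against LF_HF the 3 probes gave -0.13, -0.12 and -0.05, with adjusted p between 0.853 and 0.915. The first Gria1 probe and the first Gria2 probe thus differed in opposite directions in both comparisons of maternal diet, although neither passed the adjusted threshold.

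**Figure D2:**
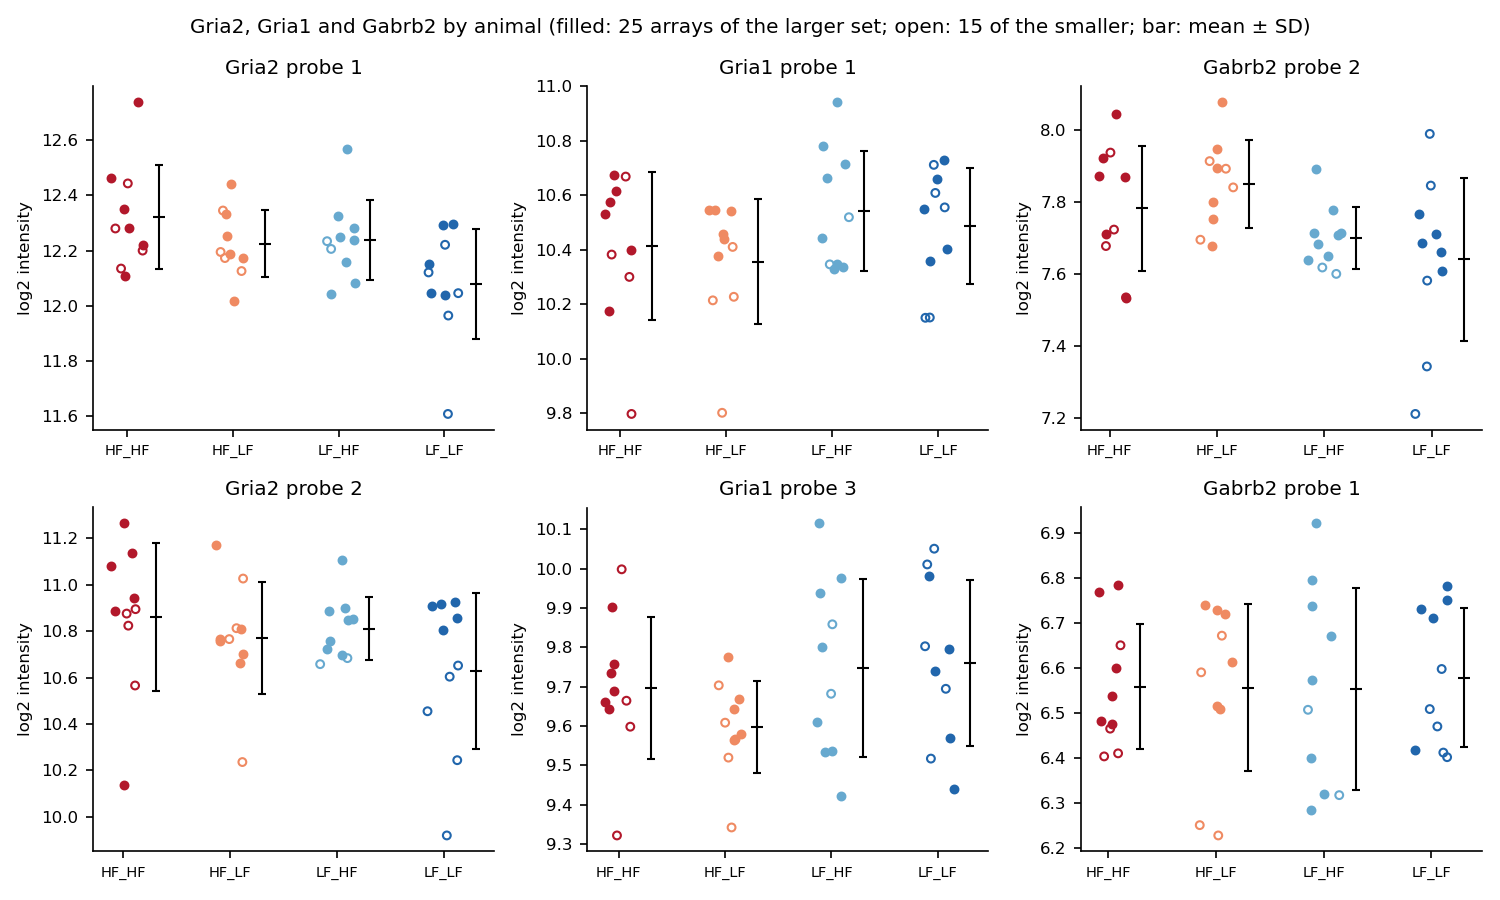
Log2 intensity (vertical axes) of each animal for 2 probes each of Gria2, Gria1 and Gabrb2 in the 4 groups (horizontal axes, dam then offspring diet), with group mean ± SD beside the points. Filled points are the 25 arrays of the larger set and open points the 15 of the smaller. The ranges of the 4 groups overlap for every probe.

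Gria3 showed how far probes of one gene can part. Its first probe measured between 7.01 and 7.87 in the 25 arrays of the larger set and between 7.96 and 8.93 in the 15 of the smaller, so the sets did not overlap, and their means differed by 1.11. Probes 2 and 3 had means 0.09 and 0.000836 apart between the sets. The only Gria4 probe followed the first Gria3 probe, with 6.35 to 6.90 in the larger set and 6.92 to 7.68 in the smaller. The sets were drawn from all probes, these included, so no test applies to these values.

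The largest receptor difference of any comparison came from that Gria3 probe. Its means were 7.85 in HF_HF and 7.78 in HF_LF, each with 4 arrays in the smaller set. They were 7.51 in LF_HF, with 2 such arrays, and 7.73 in LF_LF, with 5. In HF_HF the probe measured 7.07, 7.70 and 8.80 (lowest, median, highest), against 7.01, 7.36 and 8.42 in LF_HF. The difference was 0.33 ± 0.23, or 1.26-fold, with a 95% interval of 0.905 to 1.76-fold (limma, p = 0.161), while the other Gria3 probes gave 0.09 ± 0.09 and 0.08 ± 0.10. Gria4 averaged 6.97 ± 0.39 in HF_HF and 6.73 ± 0.18 in LF_HF (SD, n = 10 each), a difference of 0.23 ± 0.12 (limma, p = 0.0749, adjusted p = 0.853). When each array's score on that component entered the model, an alternative chosen after seeing the data, this difference was 0.08. Within the sets, pairs of Gria3 probes had r = 0.81 in the larger and r = 0.72 in the smaller for the first and second, and r = 0.63 and 0.36 for probes 1 and 3. The cause of the array sets and their part in these diet differences were not tested.

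**Figure D3:**
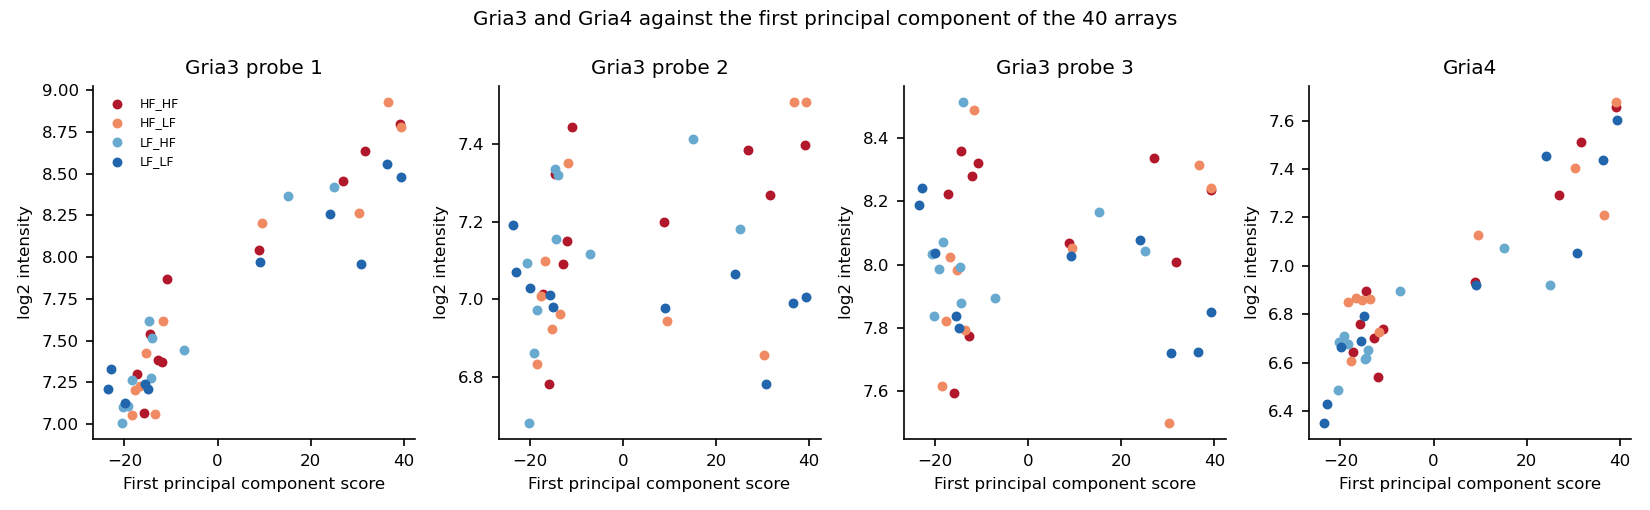
Log2 intensity (vertical axes) of the 3 Gria3 probes and the Gria4 probe against each array's score on the first principal component (horizontal axes), 1 point per animal, coloured by group. The first Gria3 probe and Gria4 separate the 2 sets of arrays without overlap, and Gria3 probes 2 and 3 do not.

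Of the kainate subunits, Grik4 varied least between animals. Grik4, a high-affinity subunit that needs a partner such as Grik1 to form a channel, had a within-group SD of 0.11, and only 11.8% of all probes tested had a smaller one. Its means were 6.96 in HF_HF, 7.01 in HF_LF, 6.95 in LF_HF and 7.01 in LF_LF. As linear intensity its group means were 123.9 to 129.2, not far above the background of 81.8 to 91.4. Those of Grik1 were 334.2 to 356.4 and those of Grik5 426.9 to 452.7. The part of this low signal in the small SD of Grik4 was not tested. The SD of Grik1 was 0.176 and that of Grik5 0.199, which 55.0% and 66.3% of all probes stayed below. Grik1 gave 0.09 ± 0.07 in HF_LF against LF_LF (limma, p = 0.22), and Grik5, the other high-affinity subunit, gave 0.08 ± 0.08 (limma, p = 0.291).

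Grin2c carried the smallest p of any receptor gene in HF_HF against HF_LF. It measured 6.57, 6.83 and 7.07 (lowest, median, highest) in HF_HF, against 6.47, 6.75 and 6.91 in HF_LF. Of the HF_HF animals 9 of 10 were above the HF_LF mean and the ranges overlapped. The difference was 0.10 ± 0.06, or 1.08-fold (limma, p = 0.106, adjusted p = 1).

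Grm4, a presynaptic receptor that is also abundant in the cerebellum and striatum, was below the LF-dam level in both groups of HF dams. It averaged 6.47 ± 0.11 in HF_HF and 6.57 ± 0.13 in LF_HF, and 6.48 ± 0.14 in HF_LF and 6.55 ± 0.14 in LF_LF (SD, n = 10 each). The averaged maternal difference was -0.08 ± 0.04 (limma, p = 0.0526, adjusted p = 0.995). This probe was above background in 26 of the 40 arrays, so its signal was close to the floor. Grm7 and Grm8 differed by 0.04 ± 0.06 and 0.06 ± 0.05 in the same comparison.

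Among the GABA-A subunits, Gabrb2, a beta subunit of the most common receptor type, had the smallest p. Its second probe measured 7.68, 7.87 and 8.08 (lowest, median, highest) in HF_LF, against 7.21, 7.67 and 7.99 in LF_LF. All 10 HF_LF animals were above the LF_LF mean, though the ranges overlapped. The difference was 0.21 ± 0.08, or 1.16-fold with a 95% interval of 1.03 to 1.30-fold (limma, p = 0.0186, adjusted p = 1). Averaged over post-weaning diet, maternal HF against LF gave 0.15 ± 0.05 (limma, p = 0.00729, adjusted p = 0.973). Maternal diet was shared by all animals of a breeding cage, and this fit counted them as separate replicates.

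The first Gabrb2 probe did not share this difference. It gave -0.02 ± 0.07 in HF_LF against LF_LF (limma, p = 0.768) and -0.01 ± 0.06 for the averaged maternal diet. It was above background in 28 arrays, and across animals the 2 probes had r = 0.10 and rho = 0.12 (permutation p = 0.512 and 0.461, adjusted p = 0.512 and 0.461), with r = 0.13 without the 2 farthest animals, -0.31 in the larger set of arrays and 0.34 in the smaller. The 2 probes had the same sign in 2 of 7 comparisons. Where each probe lies in the transcript was not analysed here.

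Gabrd, the delta subunit of receptors outside the synapse that carry tonic inhibition, was spread more widely between animals than most probes. Its within-group SD was 0.31 for the first probe and 0.32 for the second, and 88.3% and 88.4% of all probes tested had a smaller one. Its 2 probes moved together (r = 0.94, rho = 0.92, permutation p = 1e-05 for each, adjusted p = 1.5e-05 and 1.8e-05) with r = 0.92 without the 2 farthest animals, 0.95 in the larger set of arrays and 0.94 in the smaller. Group means of the first probe were nevertheless close, at 9.45 in HF_HF, 9.55 in HF_LF, 9.55 in LF_HF and 9.49 in LF_LF. Its 4 pairwise differences lay between -0.10 and 0.06.

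Gabra3, Gabrb1 and Gabbr1 did not pass in any comparison. Gabrb1 averaged 9.78 ± 0.19 in HF_HF and 9.67 ± 0.28 in LF_HF, and 9.80 ± 0.16 in HF_LF and 9.67 ± 0.28 in LF_LF (SD, n = 10 each), an averaged maternal difference of 0.13 ± 0.07 (limma, p = 0.0885). Gabra3 gave 0.13 ± 0.11 in LF_HF against LF_LF. Gabbr1 was the flattest, with averaged differences of -0.02 ± 0.05 for maternal and 0.02 ± 0.05 for post-weaning diet.

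Over all receptors, maternal diet in LF-fed offspring was tested by HF_LF against LF_LF. At adjusted p under 0.05, limma called 0 of 24 receptor probes and 0 of 14350 probes (0%). At unadjusted p under 0.05 it called 2 of 24, Gabrb2 with a positive and Gria1 with a negative difference, beside 1.38% of all probes. Taking 1 probe per gene, 11 of 17 receptor genes (64.7%) had a positive difference, beside 50.1% of all probes, with a median of 0.056 beside 0 over all probes. Gabrb2 gave the largest positive difference and Gria1 the largest negative one.

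Maternal diet in HF-fed offspring was tested by HF_HF against LF_HF. Here 0 of 24 receptor probes passed at either threshold, beside 0% of all probes at adjusted and 4.44% at unadjusted p under 0.05. Of 17 genes, 13 (76.5%) had a positive difference, beside 42.2% of all probes, and the median was 0.042, beside -0.015 over all probes. In this and the other comparisons the receptor values rest on the brightest probe per gene, whereas those over all probes include dim and repeated ones. Neither the shares nor the medians were tested, and genes measured in the same animals are not independent outcomes. Averaged over post-weaning diets, 0 receptor probes passed the adjusted threshold (0% of all probes) and 2 of 24 the unadjusted one, Gabrb2 and Gria2 (4.24% of all probes), with a median of 0.045 beside -0.005.

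Post-weaning diet in offspring of LF dams was tested by LF_HF against LF_LF. The adjusted threshold was passed by 0 of 24 receptor probes (0% of all probes) and the unadjusted one by 1, Gria2 (5.53% of all probes). With the cage as a fixed block 0 receptor probes and 110 of all probes passed, a fit that rests on cages 4 and 11, which held both diets. The receptor count was also 0 with cyclic loess normalisation, array weights, the regularised t-test and the component score in the model. It was 1 with the cage as a random block, so the loss was not particular to the cage. Of 17 genes, 13 (76.5%) had a positive difference, beside 62.0% of all probes, with a median of 0.018 beside 0.026 over all probes. Under the alternatives the receptor median lay between -0.024 and 0.055. In offspring of HF dams, HF_HF against HF_LF, 0 receptor probes passed either threshold (0% and 1.21% of all probes), and 7 of 17 genes (41.2%) had a positive difference, beside 53.1% of all probes, with a median of -0.005 beside 0.005. Averaged over maternal diets, 0 receptor probes passed the adjusted threshold (0.0139% of all probes, or 2) and 1, Gria2, the unadjusted one (5.56%). With the cage as a fixed block 0 passed the unadjusted threshold, and with the cage as a random block 1 did.

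Whether the maternal difference itself depended on post-weaning diet was tested by the interaction, the difference HF_HF minus LF_HF less the difference HF_LF minus LF_LF. It called 0 of 24 receptor probes at either threshold (0% and 0.962% of all probes), and its smallest p among receptors was 0.112, for Grin2c (0.13 ± 0.08). Of 17 receptor genes, 6 (35.3%) had a positive interaction, beside 41.1% of all probes. By the brightest probe of each gene, the 5 GABA-A genes lay between -0.16 and -0.02, while the other Gabrb2 probe gave 0.03, and the classes were not tested against each other. In the 4 pairwise comparisons the 95% intervals of the receptor probes all lay between 0.623 and 1.76-fold, so larger changes of these probes were outside the intervals. All 24 probes had overlapping ranges in each pairwise comparison. The share over all probes was not computed, so this overlap does not set the receptors apart from other genes.

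**Figure D4:**
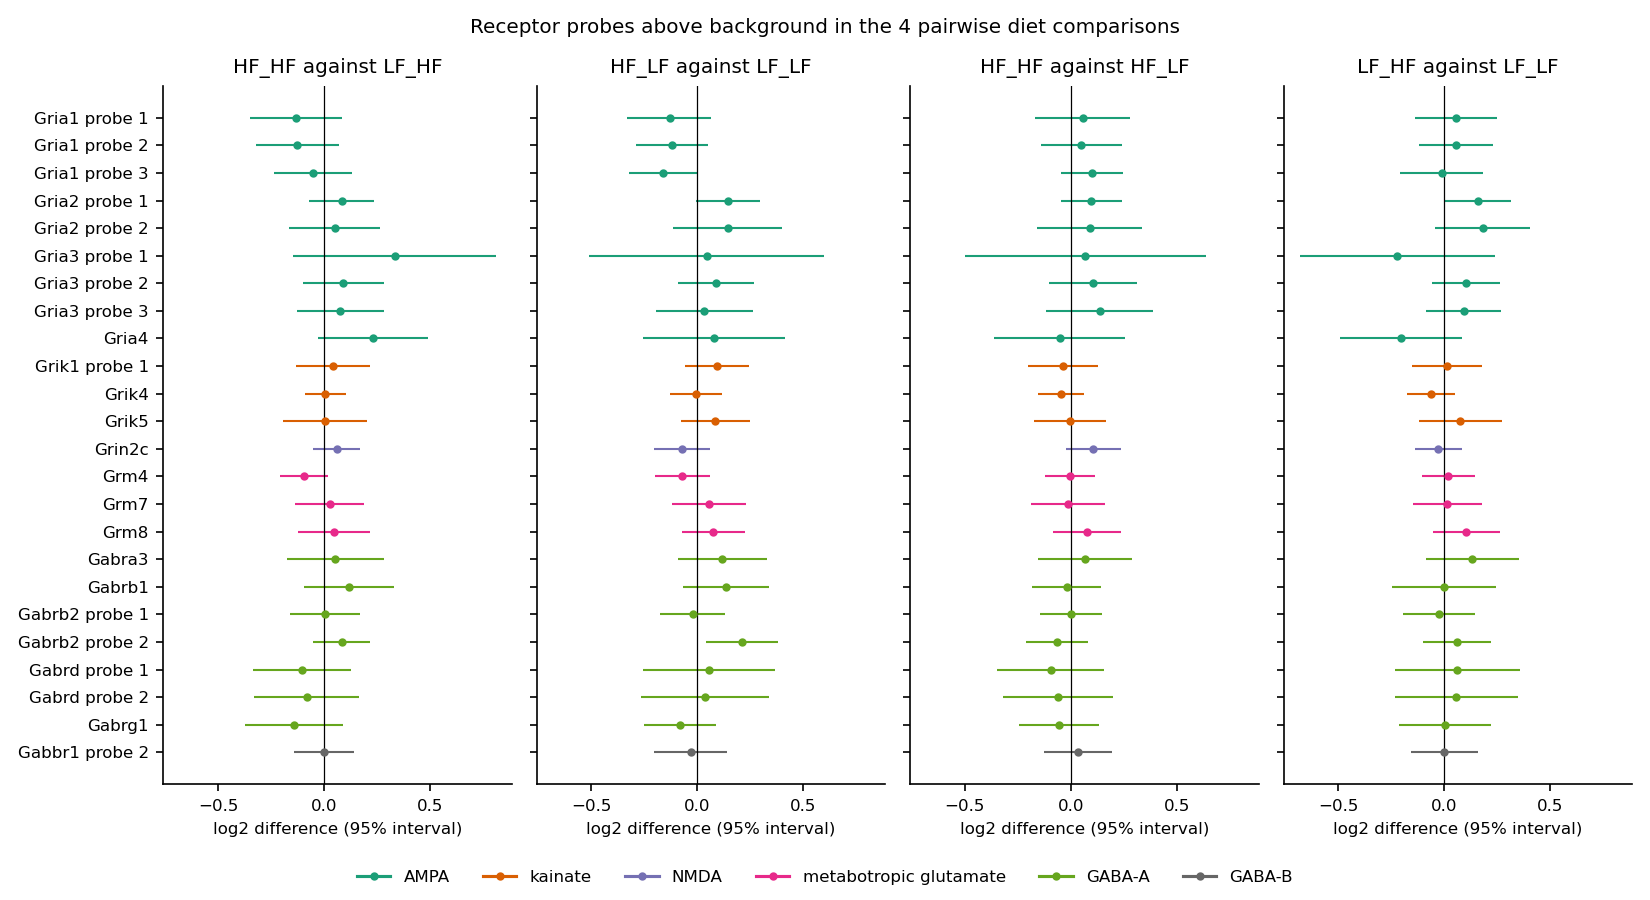
Log2 difference with its 95% interval (horizontal axes) for the 24 receptor probes above background (vertical axis, coloured by class) in the 4 pairwise comparisons, each titled by the group on top and the one it was set against. The first Gria3 probe has the widest intervals, and the intervals of Gabrb2 probe 2 and Gria1 probe 3 in HF_LF against LF_LF and of Gria2 probe 1 in LF_HF against LF_LF leave out 0.

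Genes that act with the receptors were taken from 6 lists of synthesis enzymes, transporters, AMPA and kainate auxiliary subunits, the scaffolds of both synapse types and related ligand-gated receptors. Of 66 genes, 44 were measured, and 0 passed the adjusted threshold in any of the 7 comparisons (0% to 0.0139% of all probes). At the unadjusted threshold 0 passed in HF_LF against LF_LF, 2 in HF_HF against LF_HF, 4 in LF_HF against LF_LF and 1 in HF_HF against HF_LF, beside 1.38%, 4.44%, 5.53% and 1.21% of all probes in the same order. The counts were too small to set the partner genes apart from these shares. Cacng4, a transmembrane protein that regulates AMPA receptors, differed by -0.30 ± 0.11 in HF_HF against LF_HF (limma, p = 0.0124, adjusted p = 0.853). Dlgap1, a scaffold protein bound to PSD-95, differed by 0.15 ± 0.07 in the same comparison (limma, p = 0.0465). Of 10 transporters measured, 9 had a negative and 1 a positive difference there, while 42.2% of all probes had a positive one. Their median was -0.117, beside -0.015 over all probes, and 0 were at unadjusted p under 0.05. In HF_LF against LF_LF, LF_HF against LF_LF and HF_HF against HF_LF, 6, 7 and 5 of the 10 were positive, beside 50.1%, 62.0% and 53.1% of all probes.

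In LF_HF against LF_LF the auxiliary subunit Cacng7 differed by 0.20 ± 0.08 (limma, p = 0.0194) and the scaffold Dlg2 by 0.26 ± 0.11 (limma, p = 0.024). Nlgn2, the adhesion protein of inhibitory synapses, differed by -0.18 ± 0.08 (limma, p = 0.0252) and Pick1, which controls AMPA receptor trafficking, by -0.18 ± 0.08 (limma, p = 0.0287), each with adjusted p = 0.717. Averaged over maternal diets, Dlg2 gave 0.20 ± 0.07 (limma, p = 0.0075) and Slc1a2, the main astrocytic glutamate transporter, 0.14 ± 0.05 (limma, p = 0.00931), each with adjusted p = 0.837. In HF_LF against LF_LF the smallest p was that of Glud1, an enzyme that interconverts glutamate and oxoglutarate (0.12 ± 0.08, limma, p = 0.119).

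Within groups, some receptor levels were correlated with the markers of brain regions. The median within-group SD of the 24 receptor probes was 0.2, beside 0.167 for all probes tested. Of 18 pairs of a receptor and the cell type known for it that were listed for testing, 9 could be measured, and 2 passed at adjusted p under 0.05. Grm4 was correlated with striatal medium spiny neuron markers (7 of 12 measured) with r = 0.65 and rho = 0.65 over 40 animals (permutation p = 3e-05 and 1e-05, adjusted p = 0.00027 and 9e-05 over 9 pairs). It was 0.57 on deviations from cage means, 0.66 without the 2 farthest animals, 0.59 in the larger set of arrays and 0.81 in the smaller. The striatal markers averaged 9.37 in HF_HF and 9.87 in LF_HF, and 9.82 in HF_LF and 9.94 in LF_LF, so they differed between groups in the same direction as Grm4 in both comparisons of maternal diet, and their part in the Grm4 difference was not tested.

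Gabrd had a negative relation with cerebellar granule cell markers (5 of 7 measured), with r = -0.46 and rho = -0.42 (permutation p = 0.00531 and 0.0104, adjusted p = 0.0239 and 0.0469 over 9 pairs). It was -0.53 on deviations from cage means, where it did not pass (permutation test, adjusted p = 0.112), and -0.46 without the 2 farthest animals. Within the larger and the smaller set it was -0.38 and -0.36, where adjusted p was 0.168 and 0.478. The same Gabrd probe also had r = -0.67 with astrocyte, 0.52 with general neuronal, 0.48 with striatal and 0.45 with cortical and hippocampal markers. The relation was thus not particular to granule cells. Grin2c and Grm4, both known from the cerebellum, had r = -0.03 and -0.13 with the same markers (permutation p = 0.876 and 0.454, rho = 0.03 and -0.11, adjusted p = 0.876 and 0.755). The pairing of Gria1 with Purkinje cells was left out because 1 of 5 markers was measured.

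All 24 receptor probes were then set against all 12 marker lists with at least 3 measured genes, a family of 288 pairs added after seeing the data, of which 90 passed at adjusted p under 0.05 and 81 of those kept their sign within both sets of arrays. The share over all probes was not computed, so the 90 do not set the receptors apart from other genes. Gabrg1, Gria3, Grik5 and Gria2 are described for the strength of their relations among the 288, so their values serve as descriptions. Gabrg1, a gamma subunit restricted to few regions, had a median of 7.04 in the 22 animals with hypothalamic markers of 7.54 or more, and of 6.81 in the 18 with markers of 6.80 or less. Within the 22 the relation had r = 0.73 and rho = 0.70, with r = 0.69 without the 2 farthest animals, and within the 18 it had r = 0.02 and rho = 0.13. The markers of the 18 spanned only 6.37 to 6.80, against 7.54 to 10.4 in the 22, so these r values cannot be set against each other. Grik1 had r = 0.50 within the 22 and 0.01 within the 18, and Gabrb1 had 0.16 and 0.46. The Gabrg1 pair was picked for its strength in these same animals, so no p-values are given. Over all 40 animals Gabrg1 had r = 0.80 with hypothalamic markers. It also had r = -0.70 with cortical and hippocampal, 0.45 with thalamic and -0.45 with general neuronal markers, so its relation was not particular to the hypothalamic list. The 22 animals were 3 HF_HF, 6 HF_LF, 5 LF_HF and 8 LF_LF. Gabrg1 differed by -0.14 ± 0.11 in HF_HF against LF_HF (limma, p = 0.216), and the part of the markers in it was not tested.

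The Gria3, Grik5 and Gria2 pairs were likewise picked for their strength, so no p-values are given for them. The second Gria3 probe had r = -0.81 and rho = -0.82 with thalamic markers. Its r was -0.83 on deviations from cage means, -0.80 without the 2 farthest animals, -0.86 in the larger set and -0.65 in the smaller. Gria3 probes 1 and 3 had r = -0.37 and -0.56 with these markers, and the former did not pass (permutation test, adjusted p = 0.0818). The second probe also had r = -0.75 with oligodendrocyte and -0.63 with cerebellar granule cell markers. Grik5 had r = 0.64 and rho = 0.67 with cortical and hippocampal excitatory neuron markers. Its r was 0.55 on cage deviations, 0.63 without the 2 farthest animals and 0.65 and 0.41 in the larger and the smaller set. The second Gria2 probe had r = -0.75 and rho = -0.73 with astrocyte markers. Its r was -0.74 on cage deviations, -0.73 without the 2 farthest animals and -0.76 and -0.54 in the larger and the smaller set. The first Gria2 probe had a weaker relation with them, with r = -0.45 and rho = -0.38, and r = -0.50 and -0.14 in the larger and the smaller set. Astrocyte markers averaged 9.59 in HF_HF, 9.61 in HF_LF, 9.60 in LF_HF and 9.60 in LF_LF.

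**Figure D5:**
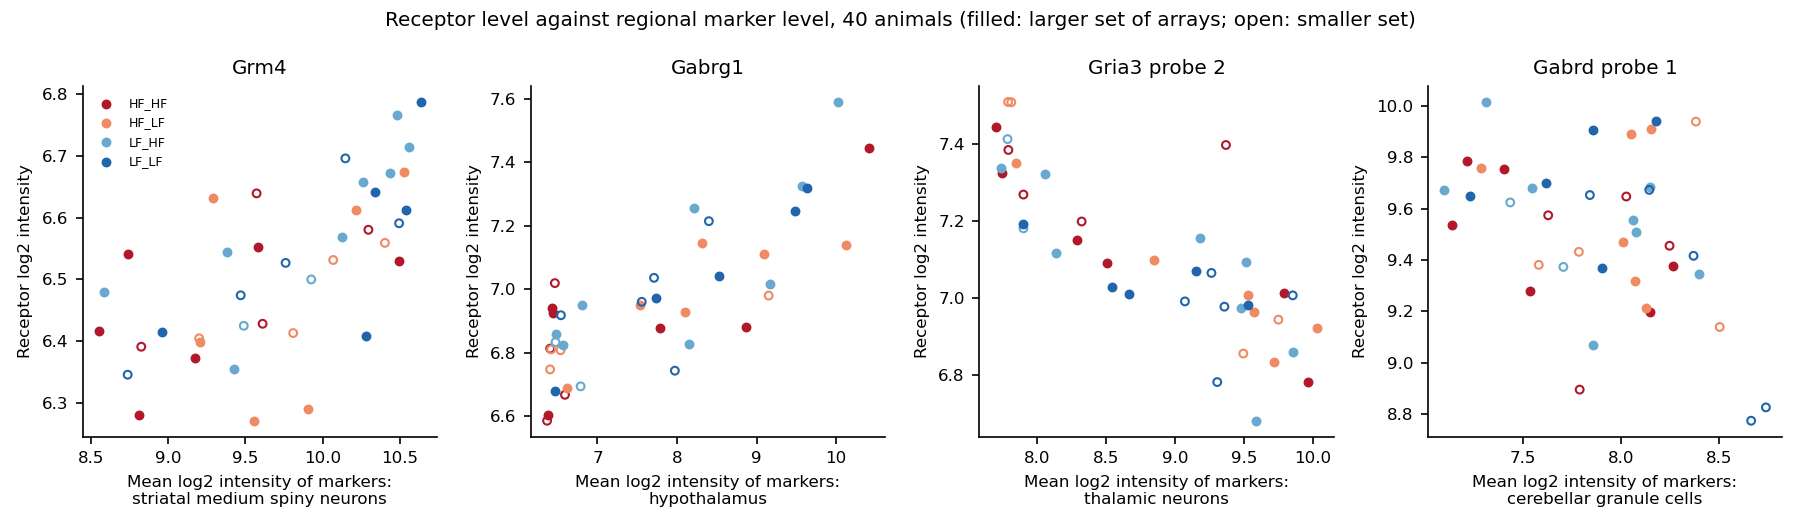
Log2 intensity of a receptor probe (vertical axes) against the mean log2 intensity of a marker list (horizontal axes), 1 point per animal, coloured by group, filled for the larger and open for the smaller set of arrays. Grm4 and Gabrg1 are higher in animals with more striatal and hypothalamic marker signal, and Gria3 probe 2 and Gabrd are lower in animals with more thalamic and cerebellar marker signal.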

How the data were processed

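The authors quantile-normalised the fluorescence of the 40 arrays, and the deposited values are linear probe intensity (48.4 to 30357.2), with the Illumina software BeadStudio named in the submitters' processing notes (no version is given in the sources used here). Probes were named through the platform annotation. Of 25697 probes, 23978 had 1 gene symbol and 1719 none. Background was the 95th percentile, in each array, of 1362 chemosensory receptor probes (81.8 to 91.4). The deposited intensity was converted to log2, and the 14350 probes above background in at least 20 arrays were tested with limma 3.58.1 (R 4.3.3, mean-variance trend, Benjamini-Hochberg over all of them). Each pairwise comparison used the 20 arrays of its groups, and the averaged and interaction terms used all 40. All counted animals of 1 cage as separate replicates unless a cage block is named. Beads have no read depth, so the number of arrays limits the precision. No label gave a slide or scan date. A gene's median used its brightest probe. Correlations used deviations from group means and 100000 permutations within groups (Python 3.11.15, NumPy 2.4.6), two-sided. All receptor genes could be named, with full values for those of smallest p in each comparison, principal subunits, genes with several probes and those of widest spread. The scripts were tested on simulated data. The members, lists and tests were chosen with earlier results of these data known. Alternatives covered normalisation, offset, filter, array weights, test, cage and left-out arrays.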

Additional observations from a re-analysis of the deposited data

Results flagged for a closer look

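Of 68 group values of the 17 receptor genes checked, 4 had a single animal far from the other 9, where chance marks about 1 in 20. Gria2 in LF_LF had a lowest animal at 11.61, the next being at 11.97. Gria1 in HF_LF had a lowest animal at 9.80, the next being at 10.22. Gabrg1 in HF_HF had a highest animal at 7.44, the next being at 7.02. Gria3 in LF_HF had a highest animal at 8.51, the next being at 8.17. All are log2 intensities of the brightest probe of each gene.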

How the results depend on the processing

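The count of receptor probes at adjusted p under 0.05 stayed at 0 in all 146 alternatives. The median receptor difference moved from its reported value by less than the SD of the mean receptor level between animals (0.0631) in all 153. It lay between 0.019 and 0.099 for HF_LF against LF_LF, 0.018 and 0.071 for HF_HF against LF_HF and 0.017 and 0.057 for maternal diet averaged. It crossed 0 for the others, with -0.024 to 0.055 for LF_HF against LF_LF, -0.012 to 0.023 for HF_HF against HF_LF, -0.043 to 0.007 for the interaction and -0.013 to 0.028 for post-weaning diet averaged. At unadjusted p under 0.05 the counts of receptor probes ran from 0 to 3 for HF_LF against LF_LF (2 reported), 0 to 2 for HF_HF against LF_HF (0), 0 to 4 for LF_HF against LF_LF (1), 0 to 1 for HF_HF against HF_LF and for the interaction (0 each), 1 to 7 for maternal diet averaged (2) and 0 to 3 for post-weaning diet averaged (1). With the cage as a fixed block, which pairs animals of 1 cage across post-weaning diets, Gria2 was 0.0845 in LF_HF against LF_LF (0.159 reported) and 0.0795 for post-weaning diet averaged (0.128 reported), and 0 receptor probes were at unadjusted p under 0.05 in either. For single genes 722 alternatives kept sign and side and 3 changed sign, all in the interaction: Grik5 gave 0.0196 with array weights and between -0.185 and 8.21e-05 with a cage left out, against -0.0805 reported, and Gria4 gave -0.0325, against 0.153 reported, once the component score entered the model. The count of fixed receptor and marker pairs that passed was 2, and 1 on deviations from cage means, 1 in the larger and 1 in the smaller set of arrays, Grm4 with striatal markers each time. Relations far from passing changed sign: Grin2c with cerebellar markers 0.03 without arrays that stand apart and 0.01 in the larger set, Gabrd with thalamic markers 0.08, Gria1 with cortical markers 0.25 and Grik4 with them -0.38 in the smaller set, and Gabrb1 with astrocyte markers 0.01 on cage deviations, 0.19 in the larger and 0.09 in the smaller set. The causes were not tested. No paired analysis was possible because no replicate number in the labels links animals across groups, other than the shared cages fitted as a block above.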
